A study of Mus musculus with 3 samples.

Results

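The Toll-like receptors are germline-encoded sensors of microbial and nucleic acid ligands, and 10 of their genes were followed here through 3 pooled libraries of mouse popliteal lymphnodes. The 10 genes, Tlr1 to Tlr9 and Tlr13, were taken by gene symbol from 48568 symbols in the deposited tables, and each had 1 entry. Popliteal lymphnodes of untreated C57Bl/6 mice aged 5 months were used whole, with stroma and parenchyma. The SryHi library pooled RNA of 3 FCG males, XY-Sry+, in which Sry is deleted from the Y chromosome and put back as an autosomal transgene that overexpresses it. The other libraries pooled 6 wildtype females and 6 wildtype males. With 1 library per group there was no replicate check on any difference, no test was run and no p-value was computed. Levels are fragments scaled to transcript length and to library depth (FPKM), so that genes of different length can be compared. All values are descriptions of these pools, and the receptor genes were chosen by their FPKM in the same 3 libraries.

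Each Toll-like receptor binds its ligand with a horseshoe of leucine-rich repeats and signals through a cytoplasmic TIR domain, which recruits the adaptor Myd88 or, for Tlr3 and in part Tlr4, the adaptor Ticam1. Tlr1, Tlr2, Tlr4, Tlr5 and Tlr6 sit at the cell surface and sense bacterial lipopeptides, lipopolysaccharide and flagellin. Tlr3, Tlr7, Tlr8, Tlr9 and Tlr13 sit in endosomes and sense RNA or DNA, and they depend on the chaperone Unc93b1 to get there. In lymphnodes the receptors are carried by B cells, dendritic cells and macrophages, and plasmacytoid dendritic cells use Tlr7 and Tlr9 to make type I interferon. Tlr7 is known for its sensitivity to gene dose. In Yaa mice, a strain with lupus-like disease, a piece of the X chromosome that holds Tlr7 and Tlr8 is duplicated on the Y chromosome.

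Of the 10 genes, 3 lie on the X chromosome in GRCm38. Tlr8 spans 167242696 to 167264329 and Tlr7 spans 167304929 to 167330558, both on the minus strand and separated by 40.6 kb. Tlr13 spans 106143204 to 106160493 on the plus strand, 61.1 Mb away from Tlr8. Tlr1 (64924679 to 64933563) and Tlr6 (64952031 to 64960097) adjoin on the minus strand of chromosome 5, with 18.5 kb between them. The others are spread over chromosomes 3 (Tlr2), 8 (Tlr3), 4 (Tlr4), 1 (Tlr5) and 9 (Tlr9). Of 45 pairs of these genes, only Tlr1 and Tlr6 shared stretches of 50 nt, the length of 1 mate. These stretches made up 13.6% of the windows of Tlr1 and 12.3% of those of Tlr6, so fragments could be divided between these 2 genes with less certainty than for the other 8.

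Promoter windows from RefSeq (GRCm38.p6) were matched by symbol for 8 of the 10 genes. The 250 bases before the start are shown for Tlr8, the receptor with the largest difference between libraries. Tlr9 and Tlr13 are shown beside it as the other endosomal receptors whose window held the motif marked here. Tlr13 is cut where the GENCODE gene begins. Capitals mark GAGGAA on either strand, the core bound by the myeloid and B cell factor PU.1 and by other ETS factors.
Tlr8, chrX:167264330-167264579, minus strand: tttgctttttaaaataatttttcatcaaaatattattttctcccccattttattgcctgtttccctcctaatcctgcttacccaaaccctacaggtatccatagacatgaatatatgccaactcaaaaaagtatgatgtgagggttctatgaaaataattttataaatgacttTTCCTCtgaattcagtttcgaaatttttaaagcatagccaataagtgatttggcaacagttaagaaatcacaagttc
Tlr9, chr9:106222348-106222597, plus strand: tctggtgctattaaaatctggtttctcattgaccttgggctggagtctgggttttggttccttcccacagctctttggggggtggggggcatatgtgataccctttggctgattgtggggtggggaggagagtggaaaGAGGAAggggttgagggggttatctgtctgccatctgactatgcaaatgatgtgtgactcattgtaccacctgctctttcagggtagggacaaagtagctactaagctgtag
Tlr13, chrX:106143025-106143203, plus strand: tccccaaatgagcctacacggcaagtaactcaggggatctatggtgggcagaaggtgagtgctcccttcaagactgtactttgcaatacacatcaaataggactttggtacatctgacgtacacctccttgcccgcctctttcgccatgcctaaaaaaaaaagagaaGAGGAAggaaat

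Each of these windows held GAGGAA once, beginning 77 bases before the RefSeq start in Tlr8 (on the other strand), 112 bases before it in Tlr9 and 83 bases before it in Tlr13. Another match lay in 1 window of Tlr1, whose other window held none, and the windows of Tlr2, Tlr3, Tlr5 and Tlr6 held none. Thus 4 of the 10 receptor windows held this motif, beside 23.3% of all 32851 windows of that length. The core of the interferon-stimulated response element (GAAA, any 2 bases, GAAA) was found in 1 of the 10 receptor windows and in 2.98% of all windows. That receptor window belongs to Tlr6, whose other window held none, and 2 matches overlap in it. These matches describe the letters only.

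The receptors spanned a range of levels from 3.02 to 70.7 FPKM over the 3 libraries, and the highest gene was not the same in each. Tlr7 was the highest receptor of SryHi males, at 68.1 FPKM, whereas Tlr1 was the highest of females, at 70.7 FPKM, and of wildtype males, at 56.9 FPKM. Tlr7 was at rank 2 in females and rank 3 in wildtype males, where Tlr9 came before it. The lowest receptor was Tlr6 in SryHi males and wildtype males, at 5.49 and 3.51 FPKM, and Tlr8 in females, at 3.02 FPKM. All 10 genes passed the minimum used for ratios, which was 1 FPKM as the mean of the libraries compared. The plot of levels by receptor shows this order.

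**Figure D1:**
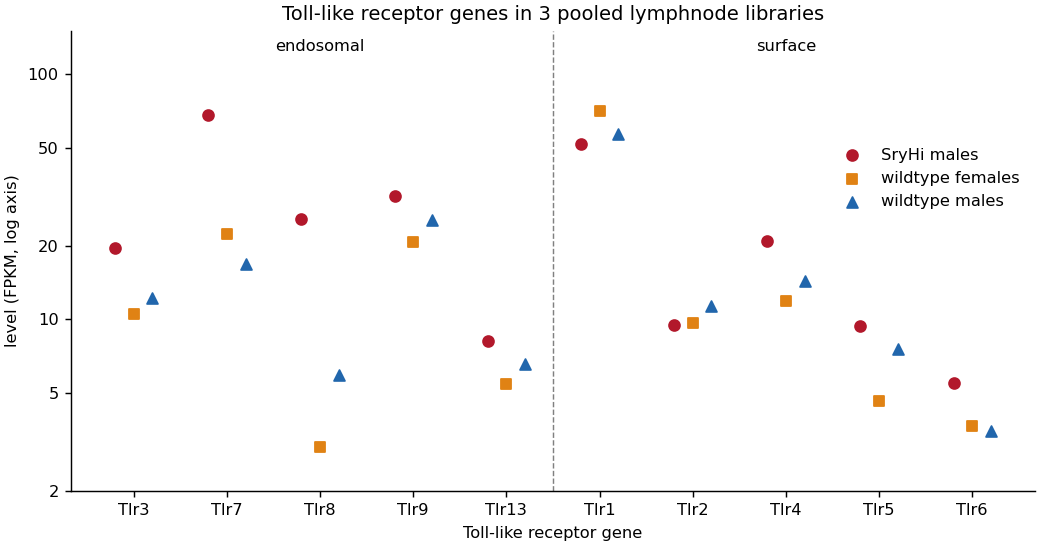
Level of each Toll-like receptor gene (FPKM, log axis) in the pooled libraries of SryHi males (circles), wildtype females (squares) and wildtype males (triangles), 1 library each and hence no error bars. Tlr7 and Tlr8 of SryHi males, at 68.1 and 25.7 FPKM, lie well above the other libraries. Tlr1 is lowest in SryHi males, and Tlr2 of SryHi males lies close to that of females (9.49 and 9.63 FPKM).

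Tlr7 and Tlr8 set the SryHi library apart. Tlr7, which senses single-stranded RNA, had 68.1 FPKM in SryHi males, 22.3 in females and 16.9 in wildtype males. Tlr8, its neighbour and closest relative, had 25.7 FPKM in SryHi males, 3.02 in females and 5.96 in wildtype males. SryHi males had 4.03 times the wildtype male level of Tlr7 (approximate 95% counting interval 3.61 to 4.49) and 4.31 times that of Tlr8 (3.55 to 5.22). Both folds are therefore alike within counting error, which does not include any difference between mice or pools. These intervals rest on an estimated 1474 and 425 fragments of Tlr7 and an estimated 489 and 132 fragments of Tlr8 in SryHi and wildtype males. On the scale used for all genes, the log2 ratio of FPKM + 1, which understates the change of low genes, Tlr7 was at 1.95 and Tlr8 at 1.94. Of 15566 genes, 127 had a larger ratio than Tlr7 and 129 a larger one than Tlr8.

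Set against females instead, SryHi males had 3.05 times the level of Tlr7 (2.76 to 3.38) and 8.51 times that of Tlr8 (6.48 to 11.2). The SryHi and female values come from separate tables. The wildtype male values are identical in both tables for 48806 of 48808 entries, so the levels are on 1 scale. The level of Tlr7 was 2.65 times that of Tlr8 in SryHi males, 7.39 times in females and 2.84 times in wildtype males. The proportion of these neighbouring genes was thus similar in both male libraries and higher in females, where Tlr8 was lower and Tlr7 higher than in wildtype males.

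The other endosomal receptors were less far apart. Tlr3, which binds double-stranded RNA, had 19.5 FPKM in SryHi males, 10.5 in females and 12.2 in wildtype males. Tlr9, the receptor of unmethylated CpG DNA, had 31.97 FPKM in SryHi males, 20.8 in females and 25.6 in wildtype males. Tlr13, a receptor of bacterial ribosomal RNA that mice have and humans lack, had 8.15 FPKM in SryHi males, 5.46 in females and 6.56 in wildtype males. In all 3 genes SryHi males were highest and females lowest. The ratios of SryHi to wildtype males were 1.59 for Tlr3 (counting interval 1.39 to 1.83), 1.25 for Tlr9 (1.12 to 1.40) and 1.24 for Tlr13 (1.01 to 1.53). Tlr13 is X-linked like Tlr7 and Tlr8, and its ratio was that of an autosomal receptor such as Tlr9.

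The surface receptors went both ways. Tlr1, which pairs with Tlr2 to bind triacylated lipopeptides, had 52.2 FPKM in SryHi males, 70.7 in females and 56.9 in wildtype males. Tlr2, the common partner of Tlr1 and Tlr6, had 9.49 FPKM in SryHi males, 9.63 in females and 11.4 in wildtype males. Tlr6, which pairs with Tlr2 to bind diacylated lipopeptides, had 5.49 FPKM in SryHi males, 3.68 in females and 3.51 in wildtype males. The partners were thus far from equal in level: Tlr1 exceeded Tlr2 by 5.51 times in SryHi males, 7.34 times in females and 5.00 times in wildtype males. Tlr4, the lipopolysaccharide receptor, had 20.8 FPKM in SryHi males, 11.9 in females and 14.4 in wildtype males. Tlr5, the flagellin receptor, had 9.41 FPKM in SryHi males, 4.67 in females and 7.59 in wildtype males. Tlr4 and Tlr5 followed the order of Tlr3, Tlr9 and Tlr13, with SryHi males highest and females lowest. For Tlr1 and Tlr2 the counting interval of the SryHi to wildtype male ratio held 1, at 0.840 to 1.002 and 0.679 to 1.02, so no difference was detectable at this depth.

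Of the 10 receptors, 2 were at least 2-fold higher in SryHi than in wildtype males and 0 at least 2-fold lower, where 3.7% and 4.14% of all 15566 genes passed these limits and 7.84% passed either. The same 2 receptors, Tlr7 and Tlr8, were at least 2-fold higher in SryHi males than in females on the FPKM + 1 scale and 0 were lower, with Tlr5 at 2.02-fold by FPKM alone, beside 4.05% and 5.05% of genes, or 9.1% either way. The median log2 ratio was 0.41 over the 10 receptors and 0.04 over all genes. The 5 endosomal receptors all lay above 0, with a median of 0.63, and the 5 surface receptors had a median of 0.28, with 3 above 0 and 2 below. Without Tlr7 and Tlr8, the endosomal median was 0.31, close to that of the surface receptors. These counts belong to the values for which the receptors were chosen and are no evidence about the family.

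Summed levels differed most for Tlr7 and Tlr8. The 5 endosomal receptors summed to 153 FPKM in SryHi males, 62.0 in females and 67.2 in wildtype males. The 5 surface receptors summed to 97.5 FPKM in SryHi males, 101 in females and 93.8 in wildtype males. Endosomal receptors made up 61.1% of the receptor total in SryHi males, 38.2% in females and 41.7% in wildtype males. Tlr7 and Tlr8 alone accounted for 37.4%, 15.6% and 14.2% of the total in these 3 libraries. Tlr1 alone gave more than any other surface receptor to the surface sum. In SryHi males Tlr4, Tlr5 and Tlr6 were at 1.45, 1.24 and 1.57 times the wildtype male level. Tlr1 and Tlr2 were at 0.917 and 0.832 times, both with a counting interval that held 1. The remaining endosomal receptors, Tlr3, Tlr9 and Tlr13, summed to 59.6 FPKM in SryHi males, 36.7 in females and 44.3 in wildtype males.

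**Figure D2:**
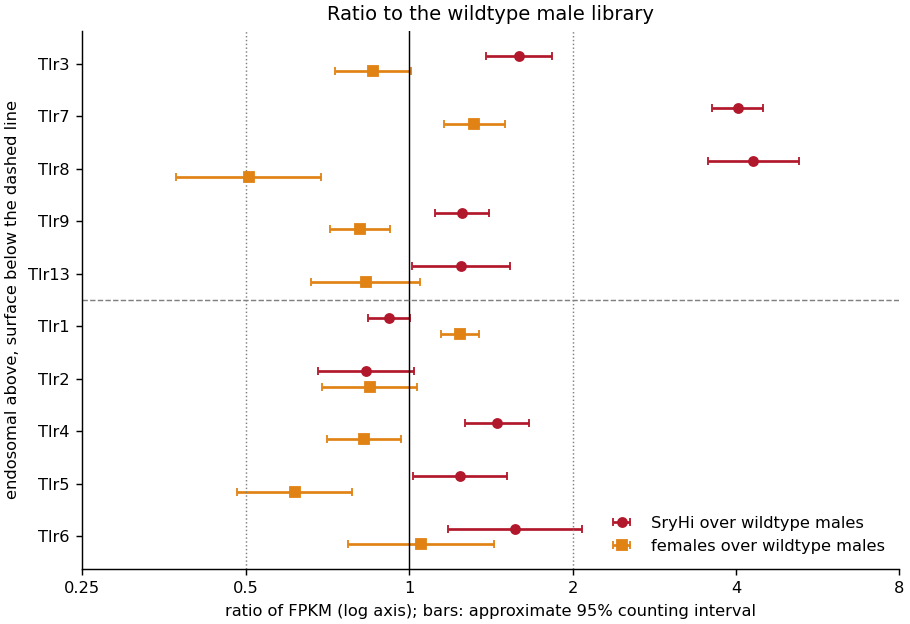
Ratio of FPKM to the wildtype male library for each receptor (log axis), for SryHi males (circles) and females (squares); bars are approximate 95% intervals for counting error only, and dotted lines mark 2-fold. Tlr7 and Tlr8 of SryHi males stand at 4.03 and 4.31, and no receptor of females passed 2-fold.

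Females and wildtype males were compared to ask whether receptor levels differed by sex. Of the 10 receptors, 0 passed 2-fold in either direction on the FPKM + 1 scale, where 2.83% of 15523 genes were higher and 2.77% lower by that much, 5.6% in all. Females had 1.32 times the wildtype male level of Tlr7 (counting interval 1.16 to 1.502) and 1.24 times that of Tlr1 (1.14 to 1.35). Tlr8 went the other way, at 0.506 times (0.372 to 0.689) with an estimated 58 and 132 fragments, and Tlr5 was at 0.615 times (0.483 to 0.784). Tlr9 was at 0.813 times (0.716 to 0.923) and Tlr4 at 0.826 times (0.707 to 0.966). The intervals of Tlr2, Tlr3, Tlr6 and Tlr13 included 1. Over the 10 receptors, 3 lay above 0 and 7 below, with a median log2 ratio of -0.22 beside 0.01 over all genes. The endosomal median was -0.23 and the surface median -0.22. In bulk lymphnodes, fewer cells of a type and less RNA per cell cannot be told apart, here and in the values above.

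The measured genes from Prps2 to Mid1, beyond Tlr7 towards the end of the X chromosome, were also higher in SryHi males. Their ratios were about 2-fold and so less than those of the receptors themselves. The ends of this stretch were not set in advance. Prps2, a phosphoribosyl pyrophosphate synthetase and the gene next to Tlr7, had 37.5 FPKM in SryHi males, 19.02 in females and 21.7 in wildtype males. Msl3, a subunit of a histone acetyltransferase complex, had 45.4 FPKM in SryHi males, 21.9 in females and 20.2 in wildtype males. Arhgap6, which encodes a GTPase activating protein, had 7.90 FPKM in SryHi males, 3.47 in females and 3.31 in wildtype males. In these 3 genes the female and wildtype male libraries were close and the SryHi library stood alone. Hccs, which attaches haem to cytochrome c, had 16.4 FPKM in SryHi males, 7.02 in females and 7.90 in wildtype males. Mid1, a ubiquitin ligase gene that in laboratory mice reaches into the pseudoautosomal region shared with the Y chromosome, had 11.5 FPKM in SryHi males, 6.47 in females and 5.20 in wildtype males. The ratios of SryHi to wildtype males over these 5 genes were 1.72 for Prps2 (counting interval 1.54 to 1.93), 2.25 for Msl3 (1.961 to 2.58), 2.38 for Arhgap6 (1.91 to 2.97), 2.08 for Hccs (1.72 to 2.51) and 2.21 for Mid1 (1.79 to 2.73). None of these intervals reached those of Tlr7 or Tlr8.

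Genes farther out did not share these ratios, although the far side held only 1 measured gene. On the side away from the chromosome end, Tmsb4x, which encodes the actin-binding thymosin beta 4, had 2311 FPKM in SryHi males, 1898 in females and 1657 in wildtype males. Beyond it, Tceanc, Rab9, Trappc2, Ofd1, Gpm6b, Gemin8 and Fancb had log2 ratios of SryHi to wildtype males between -0.80 and 0.42. Past Mid1, Gm21887 had 1.12 FPKM in SryHi males, 8.51 in females and 4.01 in wildtype males, an estimated 3, 25 and 14 fragments and the opposite order. The genes Frmpd4 and Amelx, which lie between Prps2 and Mid1, were at or near 0 in every library and could not be compared. Around Tlr7, 8 genes on the near side and 6 on the far side passed the minimum, and 3 of these 14 were at least 2-fold higher on the FPKM + 1 scale and 1 lower, beside 3.7% and 4.14% of all genes. After rescaling each library to the same FPKM total (TPM) and relative to the median of all genes, 1 was higher and 2 were lower. Between females and wildtype males, 0 of the same 14 passed 2-fold, beside 5.6% of all genes. The 5 genes from Prps2 to Mid1 had log2 ratios of -0.18 to 0.27.

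Tlr13 served as an X-linked receptor outside that stretch. Of its 16 nearest measured neighbours, 8 on each side, 0 passed 2-fold in SryHi over wildtype males, beside 7.84% of all genes. Their log2 ratios ran from -0.49 in Pgk1 to 0.76 in Atrx, with 10 above 0 and 6 below. Atrx was at 1.70 times the wildtype male level (counting interval 1.66 to 1.75), much like Prps2 beside Tlr7 at 1.72 times. Prps2 did not pass 2-fold either. Over the X chromosome, 14 of 384 measured protein-coding genes (3.65%, beside 3.7% of all genes) were at least 2-fold higher in SryHi males. These include Tlr7, Tlr8 and the 3 neighbours of Tlr7 counted above. The median log2 ratio was 0.21 over the 384 genes and 0.02 over autosomal protein-coding genes. Copy number around Tlr7 was not measured, and its part in the levels of Tlr7 and Tlr8 was not tested.

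**Figure D3:**
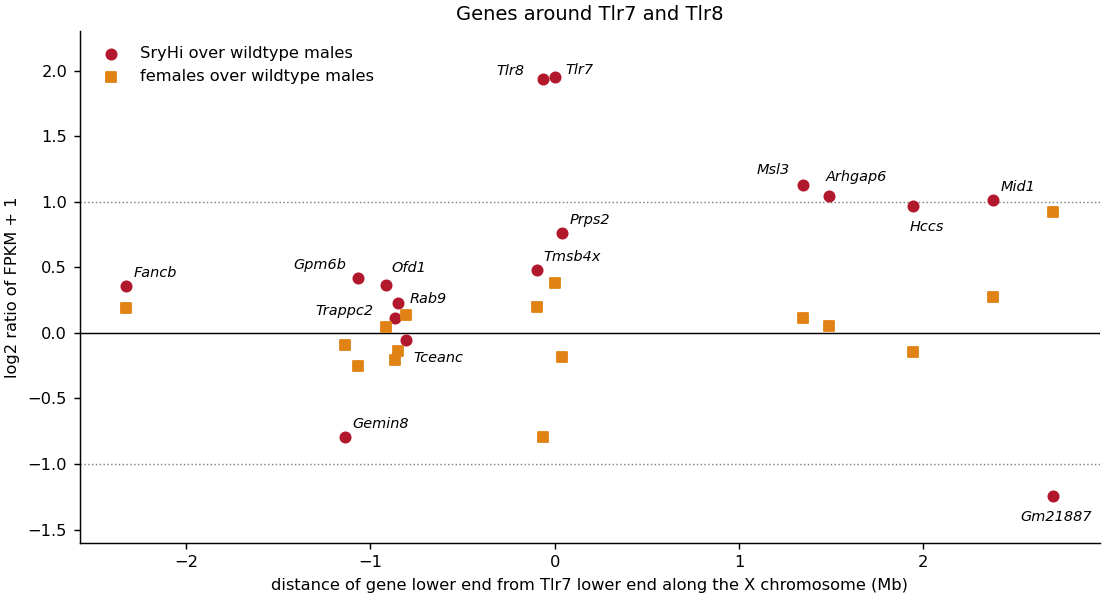
Log2 ratio of FPKM + 1 for Tlr7, Tlr8 and their measured protein-coding neighbours, against distance from Tlr7 along the X chromosome (Mb), for SryHi over wildtype males (circles, labelled) and females over wildtype males (squares); dotted lines mark 2-fold. The circles of Tlr7 and Tlr8 lie at 1.95 and 1.94, those from Prps2 to Mid1 between 0.76 and 1.13, and Gm21887 at -1.24.

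Genes with a pattern most like that of a receptor were sought among 9194 protein-coding genes that averaged 5 FPKM or more over the 3 libraries, by the Euclidean distance in both log2 ratios. The nearest to Tlr7 was Fchsd1 at a distance of 0.15, with 15.9 FPKM in SryHi males, 4.47 in females and 3.60 in wildtype males. Bcl2a1d, Acsl3, mt-Nd6 and Pparg followed, at distances of 0.27, 0.29, 0.34 and 0.35. The nearest to Tlr8 were Prrt2, Tcf7l2, Sirpb1c, Ifit3 and Tcf7l1, at distances of 0.38 to 0.57. Tlr8 came at rank 239 in likeness to Tlr7, since its female level was low. With 3 libraries such likeness is a description of 3 values per gene.

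Proteins that carry, cut or signal for the receptors went both ways between SryHi and wildtype males. Of 52 genes on a list of the pathway, 50 passed the minimum, and 1 was at least 2-fold higher and 0 lower, beside 3.7% and 4.14% of all genes. Without the added 1 FPKM, 2 were higher (Tab2 and Tlr11) and 2 lower (Cd14 and Rnaset2a, with Cd14 named after its values were seen). The median log2 ratio was 0.01. The gene past 2-fold was Tab2, an adaptor that links Traf6 to the kinase Map3k7, with 110 FPKM in SryHi males, 52.0 in females and 51.2 in wildtype males. Unc93b1, which escorts the endosomal receptors out of the endoplasmic reticulum, had 130 FPKM in SryHi males, 115 in females and 158 in wildtype males. Its level was thus lowest in females and highest in wildtype males. The chaperone gene Hsp90b1 had 173 FPKM in SryHi males, 149 in females and 201 in wildtype males, and its co-chaperone Cnpy3 had 19.9, 31.1 and 29.0 FPKM in the same order of libraries. Slc15a4, an endolysosomal transporter needed for Tlr7 and Tlr9 signals, had 40.5 FPKM in SryHi males, 44.1 in females and 39.4 in wildtype males.

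The adaptor Myd88 had 12.5 FPKM in SryHi males, 12.3 in females and 17.4 in wildtype males. Ticam1, the adaptor of Tlr3, had 7.01 FPKM in SryHi males, 6.05 in females and 7.71 in wildtype males. Both adaptors were highest in wildtype males, with the SryHi level close to or somewhat above that of females. Tlr11, which with Tlr12 senses profilin of protozoa from endosomes, was at 2.07-fold by FPKM and at a log2 ratio of 0.97 on the FPKM + 1 scale, with 17.3 FPKM in SryHi males, 11.01 in females and 8.33 in wildtype males; it was singled out after its values were seen. Tlr12 had 2.52 FPKM in SryHi males, 2.50 in females and 3.18 in wildtype males. Its log2 ratio of SryHi to wildtype males was -0.25, with a counting interval of the fold of 0.542 to 1.16. Tlr11 and Tlr12 are not among the 5 endosomal receptors counted above. Between females and wildtype males, 1 of the 50 pathway genes was at least 2-fold higher and 2 were lower, beside 2.83% and 2.77% of all genes. Lgmn, an endolysosomal protease that can cleave Tlr9, had 29.4 in females and 63.6 in wildtype males. Lbp, the lipopolysaccharide binding protein, had 2.73 in females and 12.0 in wildtype males. Rnaset2a, which encodes a lysosomal ribonuclease and has a near-identical copy Rnaset2b that makes its level uncertain, had 12.4 in females and 2.55 in wildtype males.

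Cell types that carry the receptors were read from marker lists. B cell markers such as Cd79a and Bank1 had a median log2 ratio of 0.00 in SryHi over wildtype males, and the 10 markers summed to 1628 FPKM in SryHi males, 1605 in females and 1583 in wildtype males. Markers of plasmacytoid dendritic cells had a median of -0.02 over 10 genes and summed to 424 FPKM in SryHi males, 349 in females and 437 in wildtype males. Siglech, their defining surface lectin, had 58.8 FPKM in SryHi males, 28.5 in females and 46.2 in wildtype males, 1.27 times as high in SryHi as in wildtype males. In this list 1 gene, Klk1 (named after its values were seen), passed 2-fold, beside 7.84% of all genes. The plasmacytoid list went both ways, with Spib and Bst2 at log2 ratios of -0.53 and -0.47. The part of these cells in the levels of Tlr7 and Tlr8 was not tested. Macrophage and monocyte markers had a median of 0.16 over 11 of 13 genes (Vsig4 and Cd163 were under the minimum) and sums of 1037, 853 and 1061 FPKM in SryHi males, females and wildtype males. They went both ways, with 7 above 0 and 4 below and 0 past 2-fold, beside 7.84% of all genes. The monocyte genes Ly6c2 and Ccr2 were at log2 ratios of 0.90 and 0.80. The macrophage genes Marco and Siglec1 went opposite ways, at 0.31 and -0.52, and Lyz2 was at -0.31. Conventional dendritic cell markers had a median of 0.31 over 10 genes, between Fscn1 at -0.61 and Xcr1 at 0.85. Of these, 8 lay above 0, 2 below and 0 past 2-fold, beside 7.84% of all genes. T cell markers had a median of -0.57 and those of stroma and vessels 0.01.

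Neutrophils, which carry surface receptors such as Tlr2 and Tlr4, ran the other way. Their markers had a median of -1.83 in SryHi and -2.21 in females over wildtype males, with 8 and 10 of 11 genes at least 2-fold lower, beside 4.14% and 2.77% of all genes, and the list summed to 97.6 FPKM in SryHi males, 65.2 in females and 364 in wildtype males. S100a9, an abundant neutrophil protein, had 23.3 FPKM in SryHi males, 20.2 in females and 117 in wildtype males. The wildtype male library thus stood apart from both others in this list, and the part of these cells in its receptor levels was not tested. Adipocyte markers had a median of 1.37 in SryHi over wildtype males, and all 5 that passed the minimum (Adipoq, Plin1, Cidec, Fabp4 and Retn, named after their values were seen) were at least 2-fold higher, beside 3.7% of all genes, with list sums of 137 FPKM in SryHi males, 57.6 in females and 55.7 in wildtype males. Fabp4, a fatty acid binding protein of fat cells and of some macrophages, had 116 FPKM in SryHi males, 46.8 in females and 49.95 in wildtype males. The part of nodal fat in the receptor levels was not tested.

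In females over wildtype males, T cell markers had a median of 0.49, plasmacytoid dendritic cell markers -0.23, macrophage and monocyte markers -0.23, B cell markers 0.02, conventional dendritic cell markers 0.01, and markers of stroma and vessels -0.65. The adipocyte median was 0.17. Marco, a macrophage scavenger receptor, had 49.3 in females and 137 in wildtype males. The receptors' own median of -0.22 lay close to those of the macrophage and plasmacytoid lists, and the part of these cells in it was not tested.

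Type I interferon response genes, which endosomal receptors can induce, were mostly higher in SryHi males. Of 23 genes, 20 lay above 0 and 5 were at least 2-fold higher in SryHi over wildtype males, beside 3.7% of all genes, and the median log2 ratio was 0.47. The 5 were Ifit1, Ifit2, Ifit3, Mx1 and Ifih1, of which Ifit1 and Ifit2 were named after their values were seen. The 3 genes below 0, also named after their values were seen, were Cxcl10 at -0.65, Oas1a at -0.47 and Isg15 at -0.04. Ifit3, an antiviral protein that binds Ifit1, had 14.4 FPKM in SryHi males, 2.48 in females and 4.72 in wildtype males. Mx1, an antiviral GTPase, had 15.2 FPKM in SryHi males, 6.84 in females and 6.11 in wildtype males. Ifih1, a cytoplasmic sensor of double-stranded RNA, had 20.9 FPKM in SryHi males, 9.03 in females and 8.59 in wildtype males. Irf7, the factor through which Tlr7 and Tlr9 induce interferon genes, had 26.0 FPKM in SryHi males, 11.4 in females and 22.6 in wildtype males. Its SryHi level was 1.15 times that of wildtype males. In females over wildtype males, 0 of the 23 passed 2-fold in either direction, beside 5.6% of all genes, and the median was -0.24. The part of the receptors in the levels of these genes was not tested.

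**Figure D4:**
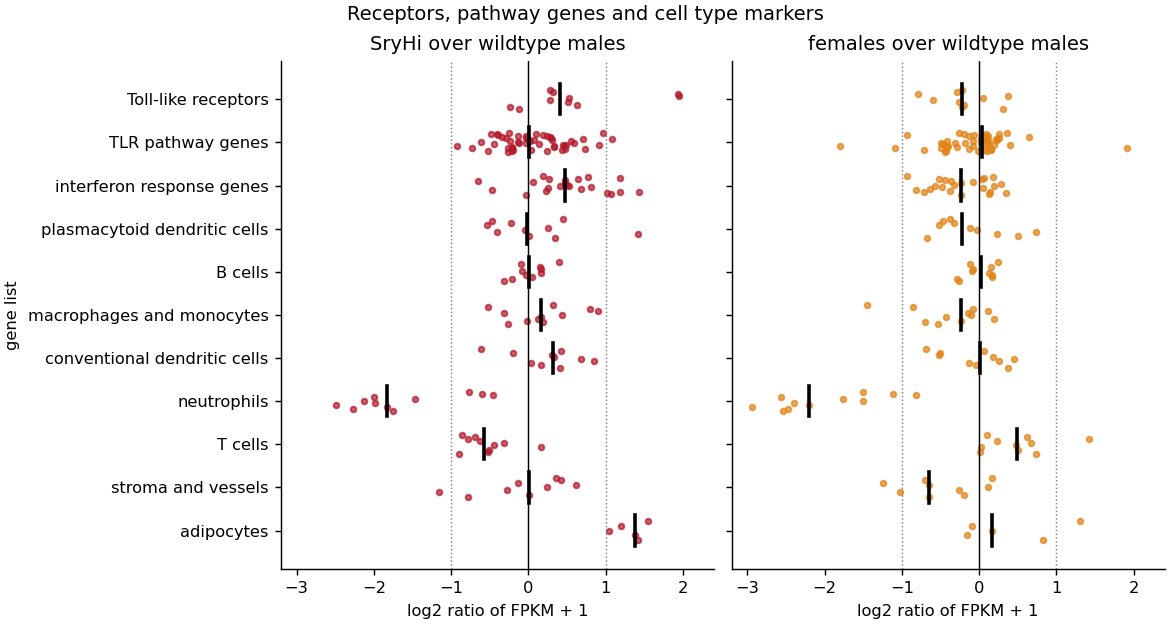
Log2 ratio of FPKM + 1 for the genes of each list (points, mean of at least 1 FPKM) in SryHi over wildtype males (left) and females over wildtype males (right), with the list's median as a black bar and dotted lines at 2-fold. In SryHi males Tlr7 and Tlr8 lie beyond every pathway gene, the interferon list has a median of 0.47, and neutrophil markers lie low in both comparisons.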

How the data were processed

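RNA of whole popliteal lymphnodes was pooled within each group, and 1 ribosome-depleted stranded library per group was sequenced as paired reads of 50 nt. The authors used HiSat2, Samtools, Cufflinks and Cuffdiff on mm10, with versions not given in the sources used here. They deposited FPKM values in 2 tables of 48808 entries, in each of which 2 lines are empty here. The tables also hold the authors' fold changes, test statistics, p-values, q-values and calls, none of which was used.

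Entries of 1 symbol were summed (231 symbols). Ratios were computed on log2(FPKM + 1), keeping genes whose 2 libraries averaged 1 FPKM or more, and 2-fold was the threshold. The deposited tables give no depth. Estimated depths were 5.6M fragments for SryHi males, 5.6M for females and 6.5M for wildtype males, where M is mega, read from the commonest smallest product of FPKM and transcript kb in 260, 278 and 248 genes with 1 transcript of 3000 to 8000 nt. Counting intervals (95%) use these depths and the longest transcript of GENCODE M21, are approximate, and cover counting error only. Members and lists were chosen with earlier results of these data known. Named genes are the receptors, the 8 nearest measured genes on each side of Tlr7 and Tlr13, pathway genes past 2-fold at a mean of at least 5 FPKM with set carriers and adaptors, list members by highest level or largest ratio, and the 5 most like genes. Exceptions are stated, and 1 gene that this rule would name is not reported here. Ratios were tested on simulated data. Alternatives were other pseudocounts, scalings, filters and folds. Python 3.11.15 with pandas 2.3.3 was used. Receptor protein sequences were not used here.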

Additional observations from a re-analysis of the deposited data

How the results depend on the processing

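No paired analysis was possible because each group is 1 pooled library and no test was run, and for the same reason no replicate could be left out. Of 84 alternative values for 10 results, 66 stayed within 1.5 times the count or within counting error and 18 moved. For the difference between endosomal and surface medians, counting error was 0.35 in SryHi males and 0.44 in females. That is about as large as the difference or larger, so its alternatives could hardly count as moved. Even leaving out Tlr7 and Tlr8 did not count as moved. The difference between endosomal and surface medians in females, close to 0, turned from -0.01 to 0.01 under TPM and 0.02 at a minimum mean of 5 FPKM. Rescaling to TPM changed most. Ighj1 and Ighj4 took 35.4% of the FPKM total in SryHi males, 72.6% in females and 75.8% in wildtype males, so TPM moved the median log2 ratio of all genes to 1.28 in SryHi and -0.16 in females over wildtype males. The share of 2-fold calls that were higher was 98.7% under TPM and 47.2% as deposited in SryHi, and 39.6% and 50.6% in females, over wildtype males. On that scale Tlr7 was at 3.38 and 0.11, and 10 receptors, 46 pathway genes and 11 neighbours of Tlr7 passed 2-fold in SryHi males, but relative to the median Tlr7 was at 2.10 and 0.26 and only 2 receptors, Tlr7 and Tlr8, 5 pathway genes (3 higher, 2 lower) and 3 neighbours (1 higher, 2 lower) passed. Under TPM the signs of Tlr1 and Tlr2 in SryHi males and of Tlr6 in females turned at face value, and relative to the median that of Tlr1 turned. Against females (chosen after seeing the data), Tlr7 of SryHi males was at 1.57 and 4 pathway genes passed. A pseudocount of 0.1 or 0 gave 4 pathway genes (2 higher, 2 lower) in SryHi males and 1 neighbour of Tlr7 in females. A 1.5-fold limit gave 9 pathway genes and 7 neighbours in SryHi males, and 2 receptors, Tlr5 and Tlr8, 6 pathway genes and 1 neighbour in females. At 3-fold, 0 pathway genes and 0 neighbours passed in SryHi males, against 2 receptors. Without Tlr7 and Tlr8 (added after seeing the data), the difference between endosomal and surface medians in SryHi males was 0.03, beside 0.35 with them. The low fragment number of Tlr8 in females, an estimated 58, limits its ratios.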
